A study of Mus musculus with 18 samples.

Results

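The 10 genes described here, Klf2, Klf4, Sox7, Sox17, Sox18, Erg, Fli1, Ets1, Gata2 and Nr2f2, encode transcription factors that endothelial cells use to hold their identity. They were chosen by name, each matched 1 Ensembl gene among the 30072 rows of the deposited tables, and all 10 passed the filter on low counts that left 15054 genes for testing. RNA-seq was performed on hearts of 18 CD-1 mice, an outbred stock, with 6 mice in each of 3 groups. The control group was a sham group that had anesthesia and CT imaging but not the treatment beam. The other groups were taken 2 weeks or 6 weeks after a single dose of 25 Gy, given with the same anesthesia and imaging. The time between sham treatment and collection of the controls is not in the labels. All mice were adults, at least 8 weeks old, of both sexes, with littermates as controls, and the sex of each mouse is not in the labels. The labels name the intraventricular septum as the tissue and gamma rays as the radiation, where the study's methods name ventricular tissue and X-rays. No group carried a transgene or a deletion. Each mouse was a separate sample. The hearts were not sorted by cell type. For a rise as for a fall, a change in the share of endothelial cells and in the RNA per endothelial cell cannot be told apart.

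Endothelial cells line the vessels of the heart, and their genes are switched on by a small number of factors acting together. ETS factors such as Erg, Fli1 and Ets1 bind short GGAAG-like elements in most endothelial enhancers, and Gata2 binds GATA elements beside them. The SOXF factors Sox7, Sox17 and Sox18 act in arterial and lymphatic specification, Klf2 and Klf4 are induced by laminar blood flow, and Nr2f2 (COUP-TFII) specifies veins.

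Total estimated counts were between 11522979 and 15501002 per mouse, and no mouse stood apart from its group (median correlation with the other mice of the group between 0.9695 and 0.9742). The share of counts from mitochondrially encoded genes moved with the group, from 19.84% to 24.97% in controls to 17.81% to 20.58% at 2 weeks and 16.52% to 20.05% at 6 weeks, and so did the TMM factors, at 0.844 to 0.9914, 0.962 to 1.0349 and 1.038 to 1.1293. With mitochondrially encoded genes removed before scaling, no call of the 10 factors changed. Values are CPM, estimated counts relative to library size after TMM normalization (a trimmed-mean scaling of the libraries), and a floor of 3 counts lay between 0.179 and 0.278 CPM. The lowest value of any of the 10 genes was 5.78 CPM, for Sox17. Floors cover counting error only. The 12 pan-endothelial markers were Pecam1, Cdh5, Tie1, Tek, Kdr, Emcn, Egfl7, Esam, Robo4, Eng, Mmrn2 and Ecscr, with none at 0. Their summed level was 1212 to 1468 CPM in controls, 1338 to 1524 at 2 weeks and 1545 to 2079 at 6 weeks. This sum was higher at 6 weeks (mean 1716 against 1342 CPM, exact permutation test, two-sided, P = 0.00216, adjusted over 2 comparisons 0.00432, the smallest raw P that 6 mice against 6 allow) and had an exact permutation P of 0.0779 at 2 weeks (adjusted 0.0779). Abundant markers weigh most in it, and the 12 did not move together. Mean CPM of Cdh5, Eng and Pecam1 went from 275, 231 and 128 in controls to 398, 328 and 238 at 6 weeks. Kdr stood at 241 in both, and Tek and Tie1 fell from 62.1 and 87.9 to 36.8 and 64.9. By the test described below, 6 of the 12 were higher at 6 weeks and 2 lower.

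To compare the factors with one another, TPM values, transcript abundances that correct for length, were used. In controls Klf2 had the highest mean level, 34.9 TPM ± 10.8 (SD, n = 6), followed by Ets1 with 25.0 ± 5.32 and Sox18 with 24.1 ± 7.01. Erg followed with 12.8 TPM ± 1.99, Sox7 with 10.5 ± 3.30 and Fli1 with 9.78 ± 0.971. Klf4 had 8.02 TPM ± 2.36 and Nr2f2 had 6.17 ± 0.920. Gata2 (4.96 TPM ± 0.721) and Sox17 (3.0 ± 0.891) were lowest. Neighbours in this order overlapped between mice in 8 of 9 pairs, and the exception was Sox18 above Erg. Over all 18 mice, Klf2 lay above 87.8% of the genes tested in TPM and Sox17 above 35.9%.

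The order at 6 weeks was led by Sox18, with 45.9 TPM ± 7.73 (SD, n = 6), before Klf2 with 43.6 ± 3.03 and Ets1 with 35.3 ± 5.59. The remaining 7 factors kept the order that they had in controls, from Erg with 25.3 TPM ± 3.73 down to Sox17 with 3.93 ± 1.46. Ranges overlapped in 7 of 9 neighbouring pairs at 6 weeks and in 6 of 9 at 2 weeks. The place of Sox18 above Klf2 was within the spread between mice, since their ranges overlapped at both times.

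**Figure D1:**
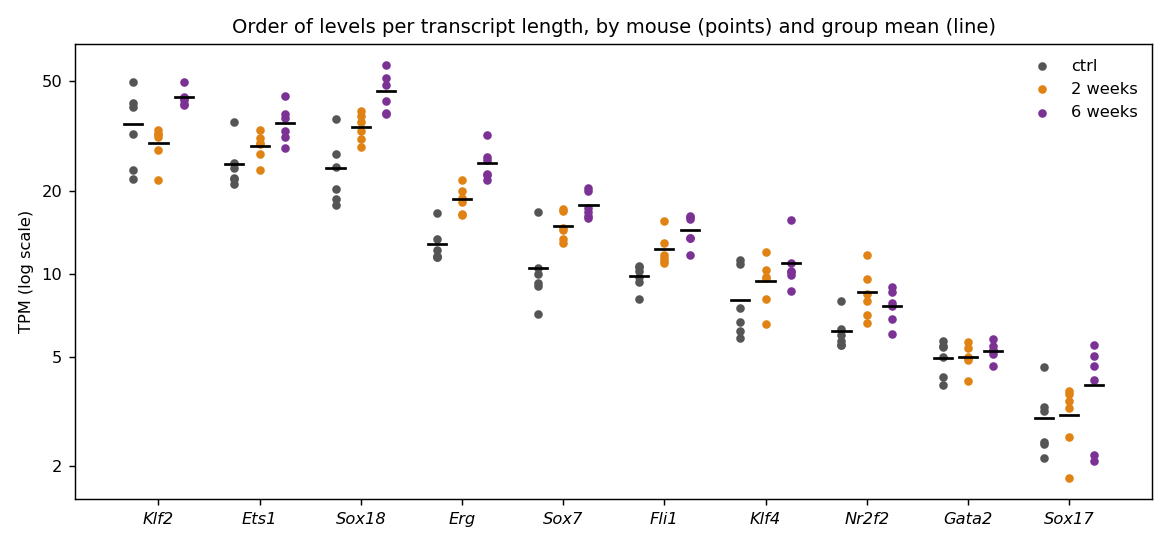
TPM of the 10 factors on a log axis, in the order of the control means; each point is 1 mouse (6 per group) and each line a group mean. TPM is not scaled between mice, so the plot serves the order of genes within a group: the means of Klf2, Ets1 and Sox18 lie highest in all 3 groups and that of Sox17 lowest.

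At 6 weeks post-IR, 3 of the 10 factors were higher and 1 was lower than in controls at an adjusted P under 0.05 (edgeR's quasi-likelihood test, Benjamini-Hochberg adjustment over all genes tested). Each log2 fold change is followed by ± its standard error (SE). Erg and Sox18 rose, by 1.47-fold and 1.46-fold in mean CPM, with groups that did not overlap, Sox7 rose by less, and Gata2 fell. Klf2, Klf4, Sox17, Fli1, Ets1 and Nr2f2 did not pass the test. Over all genes tested, 25.0% passed in this comparison, 13.5% higher and 11.5% lower, and groups did not overlap for 9.23%. The median log2 fold change of the 10 factors was 0.10, against −0.02 for all genes tested. None of the 4 had an absolute log2 fold change above 1. The calls depended on the scaling between mice: with library size only, or with TPM not scaled between mice, 6 factors were higher and none lower at 6 weeks, as Klf4, Fli1 and Ets1 passed and Gata2 did not, on scales where the median of all genes stood at 0.24 (library size), 0.29 (log2(TPM + 1)) and 0.37 (log2(TPM + 0.1)). Of the 15054 genes tested, 5490, 7354 and 7342 were higher on these scales and 326, 118 and 121 lower.

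At 2 weeks post-IR, no factor passed the same test, and DESeq2 and limma voom also called none. An unadjusted P under 0.05 was found for 6 of the 10 factors and for 3075 of the 15054 genes tested. Over all genes tested, 5.04% passed at 2 weeks, 3.10% higher and 1.93% lower, and groups did not overlap for 3.24% of all genes and for none of the factors. Between 2 and 6 weeks, no factor passed in edgeR's quasi-likelihood test, and DESeq2 and limma voom each called 1 (Erg). The unadjusted P was under 0.05 for 3 of the 10 factors and for 3209 of the 15054 genes tested. Of all genes, 5.32% passed between the time points, 3.31% higher and 2.01% lower at 6 weeks, and groups did not overlap for 3.53%. The comparisons at 2 and 6 weeks share the same 6 control mice.

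**Figure D2:**
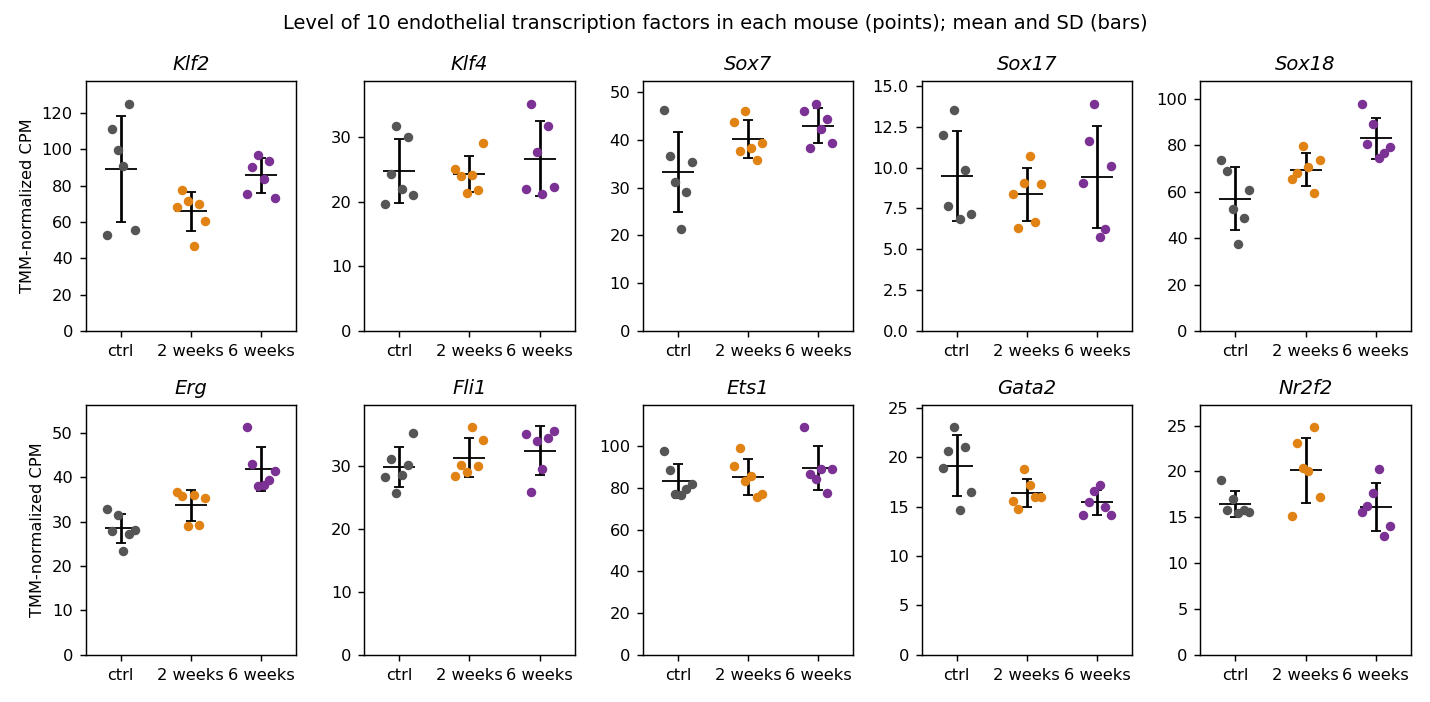
TMM-normalized CPM of each factor (vertical axes from 0) by group, in controls and after 2 or 6 weeks; points are mice, 6 per group, and bars are the mean and SD. The 6 mice at 6 weeks lie above all controls for Erg (38.1 to 51.2 against 23.5 to 32.9 CPM) and Sox18 (74.3 to 97.8 against 37.4 to 73.7), and the other 8 factors overlap.

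The ETS factors differed among themselves. Erg (ENSMUSG00000040732, chromosome 16, 95359169 to 95586593, minus strand, GRCm38) is the ETS factor most restricted to endothelium in the adult, where it maintains junction and anti-inflammatory genes. The lowest, median and highest mouse had 23.5, 28.0 and 32.9 CPM in controls, then 29.1, 35.5 and 36.6 after 2 weeks and 38.1, 40.3 and 51.2 after 6 weeks. Every mouse at 6 weeks was above every control and every mouse at 2 weeks, while 4 of 6 mice at 2 weeks were above all controls. The log2 fold change against controls was 0.56 ± 0.0928 at 6 weeks (adjusted P = 0.000272) and 0.24 ± 0.0931 at 2 weeks (adjusted P = 0.142). From 2 to 6 weeks it was 0.31 ± 0.0919 (adjusted P = 0.0528). The call at 6 weeks held in each of 18 fits that left out 1 mouse, with an adjusted P of at most 0.0009. The difference between the time points passed without control 1 (adjusted P = 0.0478), without control 4 (adjusted P = 0.0359) or without mouse 4 at 6 weeks (adjusted P = 0.0417). It also passed in 8 of 12 other settings, among them DESeq2 (adjusted P = 0.0208) and limma voom (adjusted P = 0.0331). The 8 include library size only, log2(TPM + 1) and log2(TPM + 0.1), where the median of all genes stood at 0.11, 0.11 and 0.15. The difference did not pass when scaled to the pan-endothelial markers (adjusted P = 0.356). Nor did it pass with TMM factors applied to TPM (0.27, limma, adjusted P = 0.0863).

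Of the 10 genes, 5 had an entry among the RefSeq promoter sequences (build GRCm38.p6): Klf2, Klf4, Erg, Gata2 and Nr2f2. Erg and Gata2, the 2 of them that passed the test, in opposite directions, are shown as the 150 bases just before an annotated start, 5′ to 3′. Erg has 3 such starts, of which the outermost, before the gene, and the innermost, within the gene and outside its annotated exons, are given. The gene counts do not tell which start was used. Capitals mark matches on either strand to the core letters GGAAG of ETS factors, GATAA of GATA factors, CACCC of KLF factors and ACAAT of SOX factors.
Erg outermost start, chr16:95586594-95586743, minus strand: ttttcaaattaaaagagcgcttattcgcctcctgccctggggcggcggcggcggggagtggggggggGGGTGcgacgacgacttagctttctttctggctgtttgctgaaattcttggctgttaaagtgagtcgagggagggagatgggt
Erg innermost start, chr16:95459349-95459498, minus strand: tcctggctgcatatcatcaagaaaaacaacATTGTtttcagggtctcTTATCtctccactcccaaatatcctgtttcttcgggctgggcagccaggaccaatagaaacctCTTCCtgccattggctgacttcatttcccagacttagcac
Gata2, chr6:88193741-88193890, plus strand: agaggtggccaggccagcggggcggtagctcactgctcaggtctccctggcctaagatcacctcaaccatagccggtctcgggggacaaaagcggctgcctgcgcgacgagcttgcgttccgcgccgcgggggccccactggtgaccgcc
The outermost Erg window held 1 KLF core, and the innermost window held 1 ETS core, 1 GATA core and 1 SOX core. The Erg window between them, which is not printed, held 1 ETS core. The Gata2 window shown held none of the 4 cores. Gata2 has another annotated start within the gene, whose window overlaps an annotated exon, is not printed and also held none. Of 32851 windows of the same length over all genes, 47.7% held the ETS core, 13.3% the GATA core, 37.4% the KLF core and 17.4% the SOX core.

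Fli1 (ENSMUSG00000016087, chromosome 9, 32422204 to 32542861), which acts with Erg on many of the same enhancers and is also made by blood cells, ranged from 25.8 to 35.3 CPM in controls (median 29.4), 28.5 to 36.2 at 2 weeks (median 30.2) and 25.9 to 35.7 at 6 weeks (median 34.3). The groups overlapped throughout, and the log2 fold change at 6 weeks was 0.12 ± 0.0905 (adjusted P = 0.376). Ets1 (ENSMUSG00000032035, chromosome 9, 32636221 to 32757820), a factor of endothelium and lymphocytes that responds to growth factors, ranged from 76.8 to 97.7 CPM in controls (median 80.8), 75.5 to 99.1 at 2 weeks (median 84.4) and 77.6 to 109.0 at 6 weeks (median 88.0). It also overlapped throughout, with a log2 fold change of 0.10 ± 0.0847 at 6 weeks (adjusted P = 0.444). Both were called higher at 6 weeks on scales not adjusted for composition: with library size only the log2 fold changes were 0.39 for Fli1 (adjusted P = 0.00275) and 0.36 for Ets1 (adjusted P = 0.00731), or 0.14 and 0.12 relative to the median of all genes. In unscaled log2(TPM + 1) they were 0.52 (limma, adjusted P = 0.000409) and 0.49 (adjusted P = 0.00321), or 0.23 and 0.20 relative to that median. With TMM scaling, at 2 weeks the log2 fold changes were 0.07 ± 0.0905 for Fli1 and 0.03 ± 0.0847 for Ets1. Antisense or other short annotated genes lie across both loci, and how the counting used strand is not given in the sources used here.

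Ratios of TPM within a mouse do not depend on the scaling between mice, and are given as a description. Erg stood at 0.462 to 0.555 of Ets1 in controls (median 0.533), 0.553 to 0.691 at 2 weeks (median 0.666) and 0.597 to 0.805 at 6 weeks (median 0.712). All 6 mice at 6 weeks and 5 of 6 at 2 weeks were above every control. Relative to Fli1, Erg was at 1.08 to 1.66 in controls (median 1.25), 1.29 to 1.87 at 2 weeks (median 1.48) and 1.44 to 1.97 at 6 weeks (median 1.78). Here 4 of 6 mice at 6 weeks were above all controls, so the groups overlapped.

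Among the SOXF factors, Sox18 and Sox7 rose at 6 weeks and Sox17 did not pass the test. Sox18 (ENSMUSG00000046470, chromosome 2, 181669836 to 181671640), which acts in vessel integrity and lymphatic development, had 37.4, 56.6 and 73.7 CPM (lowest, median and highest mouse) in controls. It had 59.3, 69.3 and 79.7 CPM at 2 weeks and 74.3, 79.9 and 97.8 at 6 weeks. The lowest mouse at 6 weeks was just above the highest control, and all 6 mice at 2 weeks were above the control median. The log2 fold change was 0.54 ± 0.127 at 6 weeks (adjusted P = 0.00404) and 0.29 ± 0.127 at 2 weeks (adjusted P = 0.209). Leaving out any 1 mouse kept the call at 6 weeks, with an adjusted P of at most 0.0125.

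Sox7 (ENSMUSG00000063060, chromosome 14, 63943673 to 63950732), a regulator of vessel formation, had 21.4, 33.2 and 46.2 CPM (lowest, median and highest mouse) in controls, then 35.7, 38.9 and 46.0 after 2 weeks and 38.3, 43.3 and 47.5 after 6 weeks. The irradiated mice all lay above the control median but within the control range, apart from 1 mouse at 6 weeks. The log2 fold change at 6 weeks was 0.37 ± 0.128 (adjusted P = 0.0425). Of the 18 fits without 1 mouse, 9 lost this call: without control 3 (adjusted P = 0.0787), 4 (0.068), 5 (0.0887) or 6 (0.0562), without mouse 6 at 2 weeks (0.0501), and without mouse 1 (0.081), 3 (0.085), 4 (0.055) or 5 (0.0676) at 6 weeks. Without a filter on low counts the adjusted P was 0.0536. At 2 weeks the log2 fold change was 0.27 ± 0.128 (adjusted P = 0.241), and it passed without control 1 (adjusted P = 0.0493).

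Sox17 (ENSMUSG00000025902, chromosome 1, 4490931 to 4497354), which favours arterial identity, had 6.87, 8.75 and 13.5 CPM (lowest, median and highest mouse) in controls, then 6.33, 8.69 and 10.7 after 2 weeks and 5.78, 9.57 and 13.9 after 6 weeks. The groups overlapped almost fully. At 6 weeks the log2 fold change was −0.01 ± 0.215 (adjusted P = 0.987), with its sign turning in several alternatives. Its coefficient of variation between mice, 29.1% in controls and 33.0% at 6 weeks, was above the medians over all genes tested, 17.4% and 16.2%.

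Sox7 and Sox18 varied together. Over the 18 mice the Pearson r of their log2 CPM was 0.92, and it was 0.89 after the group means were subtracted, the highest among the 45 pairs of factors (median 0.08, lowest −0.47). The mice share a scaling and the heart's mix of cells, and the value is given as a description. In TPM, Sox18 stood at 2.02 to 2.58 times Sox7 in controls, 1.95 to 2.57 at 2 weeks and 2.27 to 2.97 at 6 weeks. Relative to Sox17, Sox18 stood at 5.71 to 11.4 in controls, 9.45 to 16.0 at 2 weeks and 8.74 to 18.4 at 6 weeks. Both ratios overlapped between the groups.

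Gata2 (ENSMUSG00000015053, chromosome 6, 88193891 to 88207032), which with ETS factors drives endothelial adhesion and clotting genes and is also needed by blood stem cells and mast cells, fell at 6 weeks. The lowest, median and highest mouse had 14.7, 19.7 and 23.0 CPM in controls, then 14.8, 16.0 and 18.8 after 2 weeks and 14.1, 15.2 and 17.2 after 6 weeks. None of the irradiated mice at either time exceeded the control median, though the groups overlapped. The log2 fold change was −0.31 ± 0.0991 at 6 weeks (adjusted P = 0.0289), −0.22 ± 0.0987 at 2 weeks (adjusted P = 0.219) and −0.09 ± 0.0993 from 2 to 6 weeks (adjusted P = 0.659).

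The call for Gata2 was lost without control 2 (adjusted P = 0.0652), 3 (0.0856) or 5 (0.0722) and without mouse 1 (0.0676) or 6 (0.0691) at 6 weeks. Its direction depended on the scaling: with log2(TPM + 1) that was not scaled between mice its log2 fold change at 6 weeks was 0.08, on a scale where the median of all genes stood at 0.29, so that relative to that median it was −0.21. With library size only it was −0.04, where the median of all genes stood at 0.24, or −0.29 relative to that median. With TMM factors applied to TPM, an alternative chosen after seeing the data, it was −0.26 (limma, adjusted P = 0.0345). Among mast cell markers, 1 of 4 tested was higher at 6 weeks (Kit) and none lower, and Cpa3, Tpsb2 and Fcer1a had a median of 0 CPM. The sum over the 7 markers was 9.44 to 15.9 CPM in controls and 12.9 to 18.7 at 6 weeks. Kit was the largest part of it, with a mean of 8.55 CPM in controls and 12.7 at 6 weeks. Hdc had 2.03 and 2.3 CPM, Mcpt4 0.365 and 0.298, and Cma1 0.228 and 0.195. The part of mast cells in the level of Gata2 was not tested.

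Klf2 (ENSMUSG00000055148, chromosome 8, 72319033 to 72321656), the main flow-induced factor of quiescent endothelium, varied most among controls. The lowest, median and highest mouse had 53.0, 95.1 and 125.0 CPM in controls, then 46.7, 69.2 and 77.7 after 2 weeks and 73.3, 87.0 and 97.1 after 6 weeks. Its coefficient of variation was 32.9% in controls, 16.4% at 2 weeks and 11.4% at 6 weeks. Both later groups lay inside the control range, except for 1 mouse at 2 weeks that was lower. The log2 fold change was −0.44 ± 0.179 at 2 weeks (adjusted P = 0.169), −0.06 ± 0.178 at 6 weeks (adjusted P = 0.855) and 0.38 ± 0.179 from 2 to 6 weeks (adjusted P = 0.225). Among the alternatives 2 calls were made: without control 1 the difference at 2 weeks was −0.55, with an adjusted P that rounds to 0.05 and was counted as passing, and in unscaled log2(TPM + 1) that from 2 to 6 weeks was 0.54 (limma, adjusted P = 0.0459).

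Klf4 (ENSMUSG00000003032, chromosome 4, 55527143 to 55532466), a flow-induced partner of Klf2 that is also an early response gene in other cells, ranged from 19.6 to 31.7 CPM in controls (median 23.1), 21.3 to 29.1 at 2 weeks (median 24.0) and 21.2 to 35.1 at 6 weeks (median 25.0). Its groups overlapped, with a log2 fold change of −0.03 ± 0.141 at 2 weeks (adjusted P = 0.938) and 0.11 ± 0.141 at 6 weeks (adjusted P = 0.629). The genes most like Klf4 over the 18 mice were Irs2 (r = 0.83), Sik1 (r = 0.79) and Per1 (r = 0.78), and after group means were subtracted r was 0.85, 0.80 and 0.80. For Klf2 they were Lamtor5 (r = 0.80), Sgk1 (r = 0.80) and Pbx3 (r = 0.79), and r after group means was 0.72, 0.80 and 0.78. Immediate early genes, which respond within minutes to handling of tissue, gave 1 call at 6 weeks with TMM scaling, as 1 of 11 was higher (Junb) and none lower, and their sum was 455 to 876 CPM in controls and 537 to 1500 at 6 weeks. With library size only 6 of the 11 were higher, and in unscaled TPM 8 were. On these scales Klf4 was also called higher at 6 weeks (0.37, adjusted P = 0.0376, with library size only). With library size only the median of all genes stood at 0.24, so that relative to it Klf4 was at 0.13.

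Nr2f2 (ENSMUSG00000030551, chromosome 7, 70351944 to 70366735), the venous and lymphatic factor that is also made by fibroblasts and atrial muscle, had 15.5, 15.8 and 19.1 CPM (lowest, median and highest mouse) in controls. It had 15.2, 20.3 and 24.8 CPM at 2 weeks and 13.0, 15.9 and 20.3 at 6 weeks. At 2 weeks 4 of 6 mice were above all controls and 1 was below them. The log2 fold change was 0.29 ± 0.119 at 2 weeks (adjusted P = 0.175), −0.03 ± 0.120 at 6 weeks (adjusted P = 0.889) and −0.32 ± 0.119 from 2 to 6 weeks (adjusted P = 0.124). None of these passed the test. A processed transcript annotated on the opposite strand overlaps Nr2f2.

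**Figure D3:**
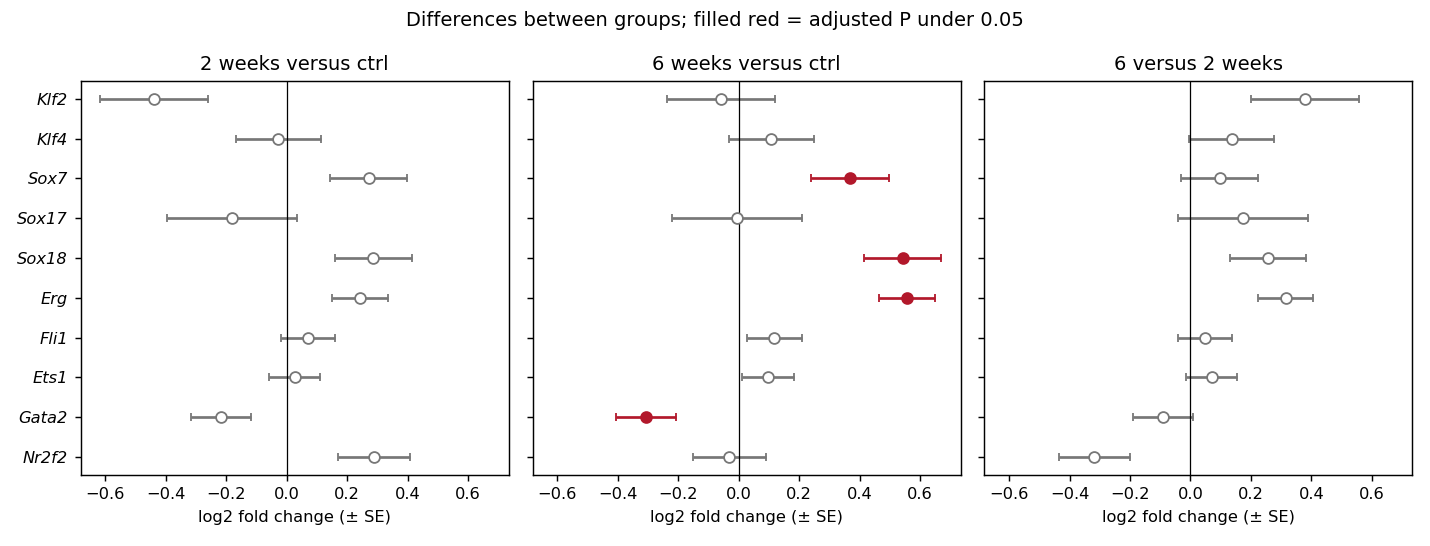
Log2 fold change of each factor in the 3 comparisons (points) with its standard error (bars), from edgeR's quasi-likelihood fit. Filled red points passed at an adjusted P under 0.05, which at 6 weeks against control held for Erg (0.56), Sox18 (0.54), Sox7 (0.37) and Gata2 (−0.31), and in the other comparisons for none.

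The factors were also set relative to the pan-endothelial markers, of which 6 of 12 were higher and 2 lower at 6 weeks. Mice were scaled so that the geometric mean of the 12 markers was equal. On this scale the median of all genes at 6 weeks stood at −0.28. Of the 15054 genes tested, 1016 were higher and 5194 lower. Among the 10 factors, 2 passed against controls. Erg remained higher (log2 fold change 0.29 ± 0.0847, adjusted P = 0.0117) and Gata2 was lower (−0.56 ± 0.135, adjusted P = 0.00323). Relative to the median of all genes, Erg was at 0.57 and Gata2 at −0.28. Sox18 had 0.28 ± 0.12 (adjusted P = 0.062), Sox7 had 0.12 ± 0.13 (adjusted P = 0.48) and Ets1 had −0.17 ± 0.0699 (adjusted P = 0.0569). From 2 to 6 weeks Nr2f2 was lower on this scale (−0.52 ± 0.149, adjusted P = 0.0314). In that comparison 207 of the 15054 genes were higher and 1744 lower, and the median of all genes stood at −0.20. ETS and GATA factors act on several of the 12 markers, so the scale is not independent of the factors.

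As TPM ratios within each mouse, Gata2 stood at 0.136 to 0.201 of the geometric mean of these markers in controls, 0.108 to 0.155 at 2 weeks and 0.0845 to 0.132 at 6 weeks. All 6 mice at 6 weeks and 4 of 6 at 2 weeks were below every control. Erg stood at 0.370 to 0.492 of the markers in controls and 0.474 to 0.610 at 6 weeks, with 4 of 6 mice above all controls. Set against each other, Erg was at 2.14 to 2.92 times Gata2 in controls (median 2.59), 2.89 to 4.46 at 2 weeks (median 3.78) and 3.93 to 6.26 at 6 weeks (median 4.93). This ratio separated all mice at 6 weeks from all controls, and 5 of 6 mice at 2 weeks were above the controls. Both genes were already called at 6 weeks in these mice, in opposite directions, so the ratio is not an independent result.

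**Figure D4:**
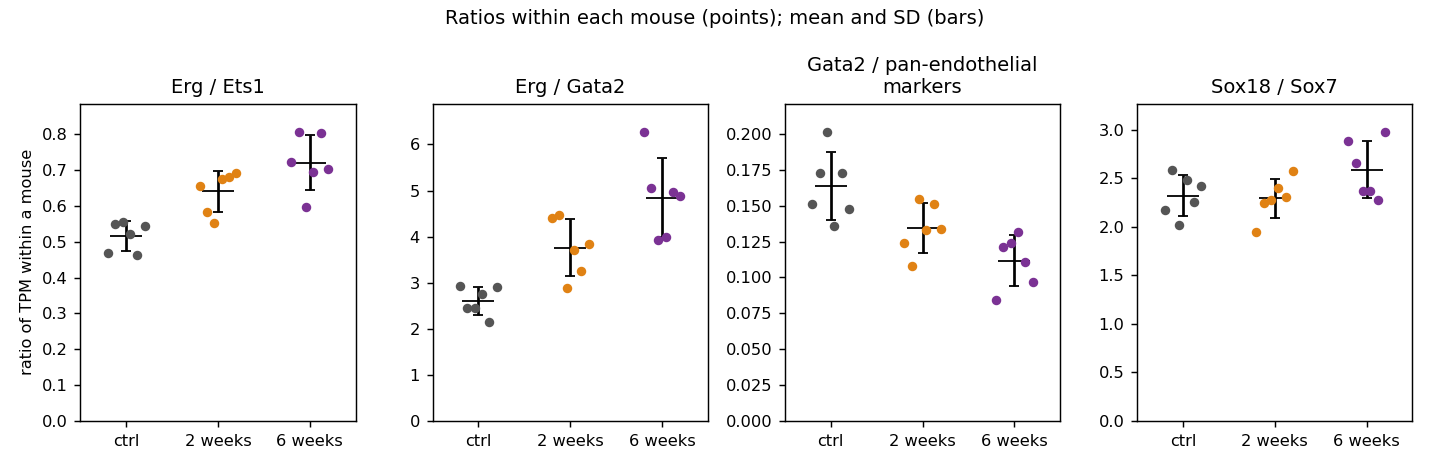
Ratios of TPM within each mouse (points, 6 per group), with the mean and SD as bars and axes from 0; the pan-endothelial value is the geometric mean of 12 markers. Erg/Ets1 and Erg/Gata2 lie above all controls at 6 weeks (0.597 or more against at most 0.555, and 3.93 or more against at most 2.92), Gata2 relative to the markers lies below all controls, and Sox18/Sox7 overlaps.

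Genes regarded as targets of these factors moved in both directions at 6 weeks, and several stand in more than 1 list. Of 20 endothelial ETS targets, 8 were higher and 5 lower, with a median log2 fold change of 0.18. Pecam1, a junction molecule, rose by 0.90 ± 0.0841 on the log2 scale (adjusted P = 9.82e-07), from 111 to 142 CPM in controls to 203 to 282. Flt1, a VEGF receptor, fell by 0.67 ± 0.0801 (adjusted P = 1.16e-05), and Tek, the angiopoietin receptor, fell by 0.75 ± 0.0962 (adjusted P = 2.23e-05). These 3 genes had groups that did not overlap. With library size only, the counts were 12 higher and 2 lower, and with TPM not scaled between mice they were the same. On these scales 94.4% and 98.4% of the calls among all genes were higher.

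Of 8 SOXF targets, 1 was higher and 1 lower, and the median was −0.05. Cdh5, the VE-cadherin of endothelial junctions, rose by 0.53 ± 0.0854 (adjusted P = 0.000197) from 231 to 327 CPM to 343 to 473. Prox1, which sets lymphatic identity, fell by 0.40 ± 0.0721 (adjusted P = 0.000539), though with log2(TPM + 1) not scaled between mice it stood at 0.02. Its mean in controls was 133 CPM, while the other lymphatic markers had means of at most 38.7 CPM (Flt4). Which cells made Prox1 was not tested. Vcam1, the vascular adhesion molecule, had 0.28 ± 0.141 (adjusted P = 0.167). Scaled by library size only, or in unscaled TPM, 4 of the 8 targets were higher and none lower.

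Of 7 GATA2 targets, 3 were higher and 1 lower, and the median was 0.21. Pecam1, already given, and Icam2, an endothelial adhesion molecule (0.74 ± 0.111, adjusted P = 0.000106), were higher, and Vwf, the clotting protein of endothelial granules, was lower (−0.68 ± 0.163, adjusted P = 0.00487). Vwf had 98.6 to 142.0 CPM in controls and 54.9 to 113.0 at 6 weeks, so the groups overlapped. With library size only or unscaled TPM, 6 were higher and none lower.

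Among the target lists, genes that KLF2 or KLF4 is known to restrain had the highest median. Of the 5 such genes reported here, 3 were higher at 6 weeks and none lower, with a median log2 fold change of 0.63, although Klf2 and Klf4 themselves did not pass the test. Sele, the E-selectin of activated endothelium, had 0.983 to 2.00 CPM in controls and 2.96 to 6.62 at 6 weeks, a log2 fold change of 1.71 ± 0.234 (adjusted P = 4.73e-05). Ccl2, a monocyte attractant, had a log2 fold change of 1.95 ± 0.486 (adjusted P = 0.00611), with 0.37 to 3.47 CPM in controls and 1.01 to 13.8 at 6 weeks, so the groups overlapped. Edn1, the vasoconstrictor endothelin, had 3.45 to 5.9 CPM in controls and 4.0 to 10.8 at 6 weeks (0.63 ± 0.211, adjusted P = 0.0349). At 2 weeks 0 of the 5 passed in edgeR's quasi-likelihood test, and 0 had an unadjusted P under 0.05. Ccl2 is also made by macrophages and fibroblasts. With library size only 4 of the 5 genes were higher at 6 weeks, and in unscaled TPM 5 were, with none lower.

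Of 5 tested genes that KLF2 or KLF4 is known to induce, 2 were lower and none higher, with a median of −0.20. Tek, already given, and Thbd, the anticoagulant thrombomodulin (−0.34 ± 0.104, adjusted P = 0.0226), were lower, though Thbd stood at 0.04 in unscaled log2(TPM + 1). Nos3, the endothelial nitric oxide synthase, had 0.21 ± 0.158 (adjusted P = 0.358). Nppc, the remaining gene of the list, had a median of 0 CPM and was not tested. With library size only, or in unscaled TPM, 1 of the 5 tested genes was higher and 1 lower.

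Arterial and venous genes gave no common direction. Of 13 arterial genes 2 were higher (Acvrl1, 0.34 ± 0.0681, adjusted P = 0.00135, and Unc5b, 0.49 ± 0.153, adjusted P = 0.0247) and none lower. The next by P was Efnb2, with −0.26 ± 0.150 (adjusted P = 0.218). Of 8 tested venous genes 3 were higher and 1 lower. Flt4, a receptor for lymphatic growth factors, had 0.38 ± 0.081 (adjusted P = 0.00201). Nrp2 had 0.53 ± 0.116 (adjusted P = 0.00235), and Selp, the P-selectin, had 1.46 ± 0.344 (adjusted P = 0.00421) at 0.185 to 1.18 CPM in controls and 0.964 to 2.45 at 6 weeks. In unscaled TPM 7 arterial and 6 venous genes were higher and none lower.

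**Figure D5:**
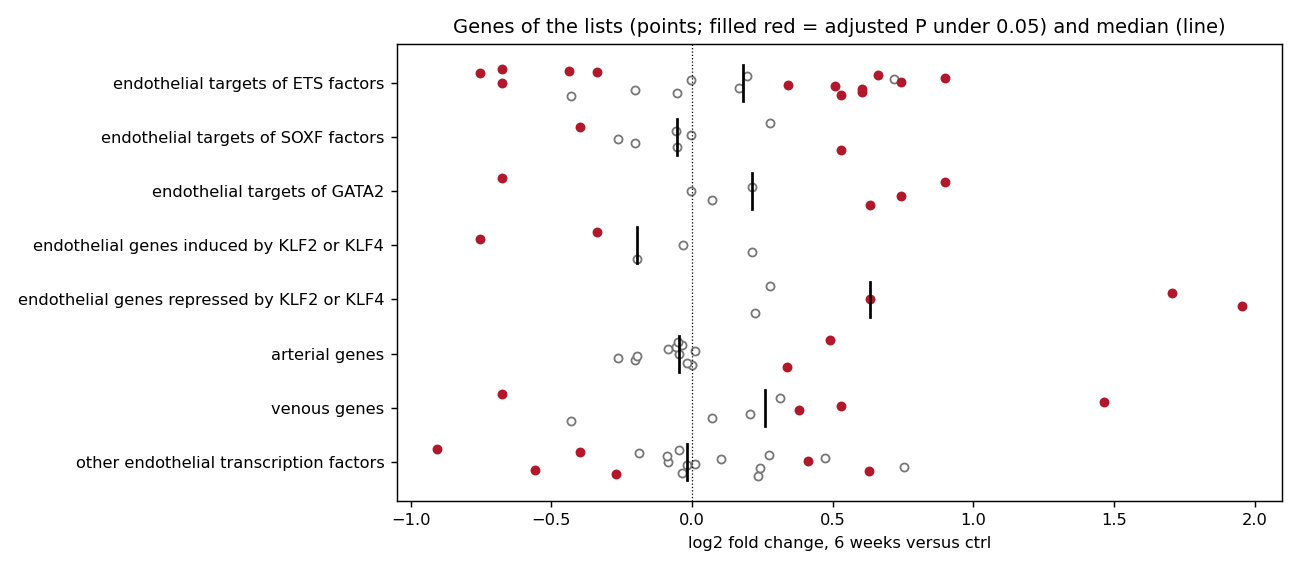
Log2 fold change at 6 weeks against control for genes of 8 lists (points; filled red where the adjusted P was under 0.05), with the median of each list as a line. The genes repressed by KLF2 or KLF4 have the highest median, 0.63, and ETS targets spread from −0.75 to 0.90; genes that stand in several lists are drawn in each.

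Other transcription factors of endothelium were also mixed. Of 19 tested, 2 were higher (Etv6 and Hhex) and 4 lower (Prox1, Foxc1, Tcf15 and Epas1) at 6 weeks. Etv6, an ETS repressor, had 10.1 to 12.0 CPM in controls, 13.0 to 16.5 at 2 weeks and 14.8 to 19.1 at 6 weeks. Its log2 fold change was 0.43 at 2 weeks (adjusted P = 0.00606) and 0.63 ± 0.0824 at 6 weeks (adjusted P = 2.9e-05). Foxc1, a forkhead factor of vessels, had −0.56 ± 0.137 (adjusted P = 0.00567). In unscaled TPM 11 of the 19 were higher and none lower, and Epas1, a hypoxia-responsive factor, turned from −0.27 to 0.13.

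Among 32 other members of the KLF, SOX, ETS, GATA and COUP-TF families, 7 were higher at 6 weeks and none lower, with a median of −0.06. Beside Etv6, these included Elf4, an ETS factor of blood cells and endothelium (0.70 ± 0.117, adjusted P = 0.00029), and Etv4, an ETS factor of growth factor signalling (1.58 ± 0.283, adjusted P = 0.000517). Etv4 was low, with 0.431 to 1.67 CPM in controls and 1.63 to 3.95 at 6 weeks. Scaled to the pan-endothelial markers, 5 of the 32 were higher and 13 lower. On that scale 1016 of the 15054 genes tested were higher and 5194 lower, and the median of all genes stood at −0.28.

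The genes whose pattern over the 18 mice was most like that of Erg were Notch4 (r = 0.90), Robo4 (r = 0.89) and Phc2 (r = 0.89), with r of 0.67, 0.72 and 0.62 after group means were subtracted. For Sox18 they were Atad2 (r = 0.92), Sox7 (r = 0.92) and Stk32c (r = 0.89), and for Sox7 they were Sox18, U2af2 (r = 0.87) and Hic1 (r = 0.86). Those most like Gata2 were Syt7 (r = 0.84), Cpeb3 (r = 0.82) and Cep85l (r = 0.82). For Ets1 they were Smarcb1 (r = 0.81), Arap3 (r = 0.78) and Pcdh17 (r = 0.78), and for Fli1 Pak1ip1 (r = 0.81), Lmnb2 (r = 0.76) and Ip6k3 (r = 0.73). Sox17 was closest to Cpeb1 (r = 0.79), Ercc3 (r = 0.75) and Rps6ka4 (r = 0.74), and Nr2f2 to Brd3 (r = 0.80), Rpsa (r = 0.77) and Mlx (r = 0.76). These values were picked as the highest of 15054 genes and are descriptions only.

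Markers of other cell types moved at the same time. All 9 macrophage markers were higher at 6 weeks, with C1qa at 1.24 ± 0.144 (adjusted P = 9.93e-06), and their sum was 172 to 515 CPM in controls, 334 to 436 at 2 weeks and 459 to 633 at 6 weeks. Of 5 tested T and NK cell markers 3 were higher, at sums of 1.20 to 2.43 CPM in controls and 4.30 to 6.66 at 6 weeks. Of 3 tested B cell markers 2 were higher, at sums of 0.431 to 0.716 and 1.13 to 2.48 CPM. Fli1, Ets1, Klf2 and Klf4 are also made by leukocytes, and the part of these cells in their levels was not tested.

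Muscle, stromal and other endothelial markers gave the remaining values. Of 7 cardiomyocyte markers 5 were lower and none higher, with sums of 77118 to 104207 CPM in controls and 70650 to 78341 at 6 weeks. That count depended on the scaling, with 1 lower by library size only, 1 lower and 1 higher in unscaled TPM, and 7 lower when scaled to the pan-endothelial markers. Of 7 lymphatic markers 1 was higher and 4 lower, with sums of 210 to 245 and 168 to 198 CPM, and of 4 endocardial markers 1 was lower (Npr3), with sums of 34.1 to 58.4 and 19.0 to 38.2 CPM. Prox1 was the largest part of the lymphatic sum, with a mean of 133 CPM in controls and 101 at 6 weeks. Of 8 fibroblast markers 2 were lower, with sums of 2635 to 5502 and 2425 to 3348 CPM, and of 9 smooth muscle and pericyte markers 1 was higher (Cspg4), with sums of 989 to 1207 and 850 to 1258 CPM. All 6 mitosis genes were higher, at sums of 5.92 to 55.1 and 42.9 to 91.0 CPM, and of 6 tested erythroid and platelet markers 1 was lower. No marker in these lists had a median of 0 CPM except Hba-a2. Their part in the levels of the factors was not tested.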

How the data were processed

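RNA of 18 hearts was sequenced individually. The authors aligned reads to GRCm38 with STAR, estimated transcript abundance in Salmon 1.0 and collapsed transcripts into genes through tximport. The estimated counts they deposited hold fractions and carry no scaling between mice, and the deposited TPM values, from the same quantification by the authors, correct for transcript length within a mouse.

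Counts were rounded and fitted in edgeR 4.0.16 (R 4.3.3) with TMM factors and 3 groups. The genes tested reached 0.23 CPM in 6 or more mice (quasi-likelihood F test, two-sided), with Benjamini-Hochberg adjustment within a comparison. The SE was obtained as the size of the log2 fold change over the root of F. The code was tested on simulated counts. Sums of markers were compared with exact permutation tests in scipy. Gene positions follow GENCODE M21 (GRCm38). Alternatives used DESeq2 1.42.0, limma 3.58.1, other scalings, no filter, TPM with pseudocounts of 1 and 0.1, a replicate block, a Y-linked covariate, and fits without 1 mouse. The 10 factors and all lists were chosen with earlier results of these data known. Named were the 10 factors, the 3 genes of each list with the smallest P at 6 weeks, and the 3 genes most correlated with each factor over the 18 mice. Further genes called in a list were named after their values were seen. A gene of the target lists is not reported here, and its list was counted without it.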

Additional observations from a re-analysis of the deposited data

Results flagged for a closer look

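Of the 30 groups of 6 mice (10 factors in 3 groups), 2 held a mouse that lay farther from its neighbour than Dixon's 95% limit allows, and chance gives about 1 in 20. Mouse 1 at 6 weeks had the highest Erg level of its group, 51.2 CPM, at a ratio of 0.6252. The same mouse had the highest Ets1 level of its group, 109.0 CPM, at a ratio of 0.6274. Without it, the log2 fold change at 6 weeks against controls was 0.49 for Erg (edgeR's quasi-likelihood test, adjusted P = 0.000672) and 0.03 for Ets1 (adjusted P = 0.822).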

How the results depend on the processing

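The replicate numbers of the labels did not pair the mice (correlations of same-numbered deviations from −0.08 to 0.11, with the own number best in 3 of 18 cases). With the replicate block, 1 factor passed from 2 to 6 weeks (Erg, adjusted P = 0.0477) in place of 0, and the counts of 0 at 2 weeks and 4 at 6 weeks did not change.

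The number of factors that passed at 2 weeks was 0, but 3 with library size only and 5 with TPM and either pseudocount. At 6 weeks it was 4, but 6, all higher, with library size only and with TPM and either pseudocount, 2 when scaled to the pan-endothelial markers and 0 with an absolute log2 fold change above 1. From 2 to 6 weeks it was 0, but 1 with DESeq2, limma voom, DESeq2-type size factors, library size only, pan-endothelial scaling, log2(TPM + 0.1) or Y-linked expression as a covariate, and 2 with log2(TPM + 1). The 1 factor was Erg (higher), except with pan-endothelial scaling, where it was Nr2f2 (lower), and the 2 were Erg and Klf2. Of all 15054 genes at 2 weeks, 467 were higher and 291 lower, but 1706 and 82 with library size only. With log2(TPM + 1) they were 2774 and 39, and with log2(TPM + 0.1) 2990 and 36. At 6 weeks 2028 were higher and 1731 lower, but 5490 and 326 with library size only and 7354 and 118 with log2(TPM + 1). Marker scaling gave 1016 and 5194. From 2 to 6 weeks they were 498 and 303, but 1098 and 104 with library size only and 1026 and 47 with log2(TPM + 1). Leaving out 1 mouse gave 0 to 2 factors at 2 weeks, 2 to 4 at 6 weeks and 0 to 1 between the time points. The count of factors at 2 weeks was 2 without control 1. The count at 6 weeks was 2 without control 3, control 5 or mouse 1 at 6 weeks. At 6 weeks the median of all genes moved to 0.29 with log2(TPM + 1), 0.37 with log2(TPM + 0.1) and 0.24 with library size only, and the share of higher among all calls from 54% to 98.4%, 98.4% and 94.4%. TPM with TMM factors, chosen after seeing the data, gave 0, 4 and 0.

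Of 900 values of single factors, 795 kept their direction and side of the threshold, 18 lost and 37 gained a call, and 50 turned their sign. None of the sign changes concerned Erg or Sox18, and the causes were not tested. With library size only, the log2 fold change turned for Klf4 (0.126) at 2 weeks, Klf2 (0.209), Sox17 (0.259) and Nr2f2 (0.228) at 6 weeks, and Gata2 (0.020) from 2 to 6 weeks. With log2(TPM + 1) and log2(TPM + 0.1) it turned at 2 weeks for Klf4 (0.222 and 0.247), Sox17 (0.033 and 0.042) and Gata2 (0.013 and 0.017), at 6 weeks for Klf2 (0.368 and 0.379), Sox17 (0.268 and 0.328), Gata2 (0.075 and 0.090) and Nr2f2 (0.270 and 0.305), and between the time points for Gata2 (0.062 and 0.073). With TPM and TMM factors it turned at 2 weeks for Klf4 (0.0035) and Ets1 (−0.012). Scaled to the pan-endothelial markers it turned for Ets1 (−0.037) at 2 weeks, for Klf4 (−0.140), Fli1 (−0.151) and Ets1 (−0.170) at 6 weeks, and for Klf4 (−0.043), Sox7 (−0.102), Sox17 (−0.023), Fli1 (−0.158) and Ets1 (−0.133) between the time points. Sox17 at 6 weeks also turned with limma voom (0.037) and DESeq2-type size factors (0.0003). Some of the 18 fits without 1 mouse turned a sign, and over all 18 the values ranged from −0.088 to 0.055 for Klf4 and −0.021 to 0.077 for Ets1 at 2 weeks, and from −0.172 to 0.066 for Klf2, −0.145 to 0.116 for Sox17 and −0.106 to 0.023 for Nr2f2 at 6 weeks.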
